A study of Mus musculus with 2 samples.

Results

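R-loop peaks over internal exons were taken from the DRIP-seq peak list of primary mouse neural stem and progenitor cells (NSPCs). A peak belonged to this class when it overlapped an exon of a protein-coding gene shorter than 300 kb by at least 1 bp and contained neither the start nor the end of any protein-coding gene, in the mm9 genome with the GENCODE M1 annotation. The class held 4984 of the 22132 peaks in the list, or 22.5%. For comparison, 2333 peaks contained gene starts only, 1388 gene ends only and 542 both, and 5965 were purely intronic. The cells came from the frontal brain of C57BL/6 mice at postnatal day 7. They had been exposed to 0.5 μM aphidicolin, an inhibitor of DNA polymerases that slows replication, for 48 h, as the paper's methods give it, whereas the sample labels name no treatment. After digestion of the DNA with 5 restriction enzymes, the antibody S9.6 was used to pull down RNA:DNA hybrids for sequencing. The study made 3 biological replicates, but 1 peak list was deposited, without signal or scores, so the values below carry no replicate error and the depth behind a peak is unknown. The input sample was not analysed here. DNA from 3 DRIP reactions was pooled in each replicate, and no untreated group was analysed here.

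An R-loop forms when RNA pairs with the template strand of DNA and leaves the other DNA strand unpaired. It usually forms behind a transcribing RNA polymerase, and a coding strand richer in G than in C favours it, because the hybrid of G-rich RNA with C-rich DNA is stable. R-loops are best known from CpG island promoters and from transcription end regions. Internal exons lie away from both and are bounded by splice sites, where the spliceosome removes introns while the polymerase is still at work.

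The sequences below show what DNA at an exon boundary inside such a peak looks like. They come from the 6 genes with the most peaks of this class and are the 120 bases, centred on a boundary between exon and intron within a peak, in which G outnumbered C by most on the coding strand. They are written 5′ to 3′ along the coding strand of mm9, with exonic bases in capitals and intronic bases in lower case.
Zmynd8, chr2:165621523-165621642, minus strand, end of exon 19 of 24: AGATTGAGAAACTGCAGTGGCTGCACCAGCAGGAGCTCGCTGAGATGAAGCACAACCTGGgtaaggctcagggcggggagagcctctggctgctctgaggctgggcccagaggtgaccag
Trio, chr15:27776555-27776674, minus strand, beginning of exon 18 of 57: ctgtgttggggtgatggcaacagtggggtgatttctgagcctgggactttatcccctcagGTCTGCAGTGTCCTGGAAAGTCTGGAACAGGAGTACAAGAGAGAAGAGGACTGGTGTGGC
Myo18a, chr11:77659251-77659370, plus strand, end of exon 30 of 41: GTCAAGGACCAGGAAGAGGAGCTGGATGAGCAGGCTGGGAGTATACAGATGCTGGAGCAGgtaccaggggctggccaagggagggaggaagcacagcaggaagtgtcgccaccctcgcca
Cacna1a, chr8:87076852-87076971, plus strand, beginning of exon 16 of 47: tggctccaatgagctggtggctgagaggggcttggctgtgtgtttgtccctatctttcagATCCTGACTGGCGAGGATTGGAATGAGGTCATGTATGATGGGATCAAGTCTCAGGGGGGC
Chd2, chr7:80599155-80599274, minus strand, end of exon 31 of 39: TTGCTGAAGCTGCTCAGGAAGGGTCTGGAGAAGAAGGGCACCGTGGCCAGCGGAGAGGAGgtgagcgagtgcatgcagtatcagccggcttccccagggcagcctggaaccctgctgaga
Dido1, chr2:180422443-180422562, minus strand, beginning of exon 4 of 16: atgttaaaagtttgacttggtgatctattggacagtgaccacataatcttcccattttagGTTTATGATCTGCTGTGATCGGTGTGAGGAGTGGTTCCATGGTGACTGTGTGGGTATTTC
The windows were chosen for this excess and therefore show its upper end. Myo18a held 48 G and 26 C, Zmynd8 45 and 29, Chd2 46 and 29, Trio and Cacna1a 44 and 21 each, and Dido1 33 and 17. Their GC content ran from 41.7% in Dido1 to 62.5% in Chd2.

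Whether the peaks named for internal exons lay over internal exons was examined with 1 representative transcript per gene, the one with the longest coding sequence. An internal exon of this transcript was overlapped by 3672 peaks, or 73.7%. A further 304 peaks overlapped its first but no internal exon and 605 its last exon only, while 403 overlapped only exons of other transcripts of the gene. Although no peak contained the outer limit of a gene, 1950 peaks, or 39.1%, contained the start or end of some annotated transcript, and 1151 that of a coding transcript. The class by its rule is therefore broader than its name. A stricter set, with an internal exon of the representative transcript and with no transcript start or end inside, held 2362 peaks in 1882 genes, and its values are given where they bear on a result. Single-exon genes entered as well, 20 in all, among them Sox2, which encodes a transcription factor of neural stem cells and has 1 peak inside its single exon.

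Peaks over internal exons were of intermediate width. Their median width was 2032 bp, with the middle 50% between 1064 and 3570 bp, against 1322 bp for all peaks, 897 bp for purely intronic peaks, 2325 bp for peaks over gene starts only and 4156 bp for peaks over gene ends only. Widths ran from 100 bp to 40547 bp, and 61 peaks were at least 10 kb wide. The rule itself bears on width, since a wide peak meets an exon more readily than a narrow one and a very wide peak also reaches a gene start or end. Together the peaks covered 13.2 Mb. Their GC content had a median of 49.9%, close to the 50.0% of peaks over gene ends only, above the 47.3% of purely intronic peaks and below the 56.4% of peaks over gene starts only. These differences between classes describe 1 list and could not be set against replicate error.

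**Figure D1:**
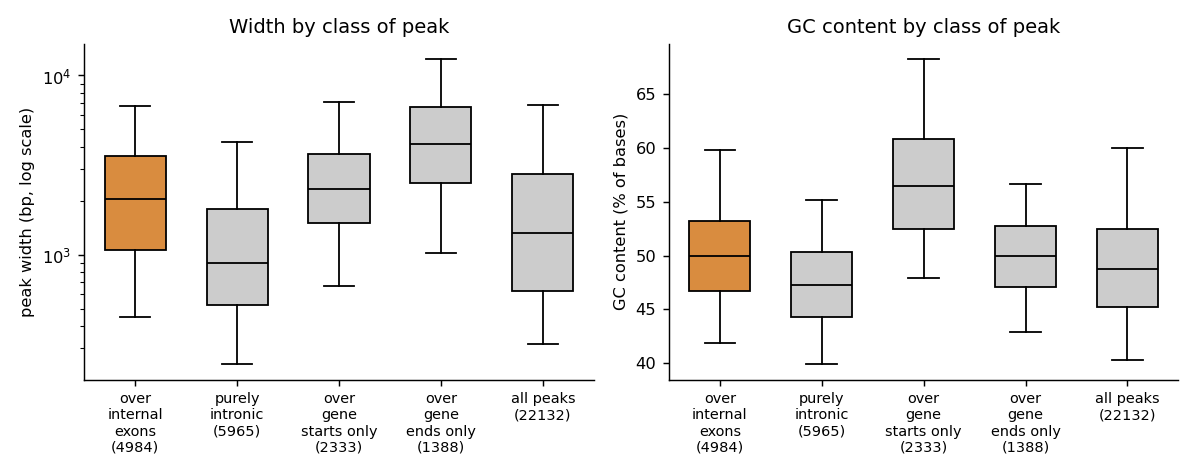
Width of peaks in bp on a log scale (left) and GC content in percent of bases (right) for peaks over internal exons (orange), for other classes and for all peaks, with the number of peaks in parentheses. Lines are medians, boxes the middle 50% and whiskers the 5th and 95th percentiles over peaks; peaks over internal exons sit between purely intronic peaks and peaks over gene starts in both panels.

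Few of the peaks had the CpG content of island promoters. The CpG ratio, the observed number of CpG dinucleotides over that given by the C and G content, had a median of 0.244 and reached at least 0.6, a customary mark of CpG islands, in 6.60% of peaks over internal exons. Among peaks over gene starts only, 58.1% reached it, with a median of 0.657, and among purely intronic peaks 1.64%. GC skew, defined as (G - C) / (G + C) on the coding strand, could be computed for the 4952 peaks whose genes lie on 1 strand. It was positive in 68.2%, against 73.5% for gene starts only, 65.8% for gene ends only and 63.7% for purely intronic peaks. Among all peaks it was positive in 66.1%. The medians ordered the classes otherwise, with 0.0362 for peaks over internal exons and 0.0481 for purely intronic peaks. They were 0.0422 for gene starts only, 0.0217 for gene ends only and 0.0385 for all peaks. In the stricter set 68.4% had positive skew, with a median GC content of 49.2%.

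A motif of 4 runs of at least 3 G separated by 1 to 7 bases, the pattern from which G-quadruplexes can fold, was searched on both strands. It was found in 41.3% of peaks over internal exons, 76.2% of peaks over gene starts only and 63.6% of peaks over gene ends only. Among purely intronic peaks 24.4% had it, and among all peaks 38.0%. Peaks of these classes differ in width. Per kb the motif numbered 0.334 in peaks over internal exons, below the 0.449 of all peaks. Its number per kb was 0.326 in purely intronic peaks, 0.346 for gene ends only and 0.789 for gene starts only. On the coding strand it was present in 1367 peaks over internal exons and on the template strand in 1240. A match of letters does not show that a structure forms.

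Most bases of these peaks were intronic. Exons made up 24.9% of the covered bases, and the exonic share of a peak had a median of 19.6%. Peaks that were wholly exonic numbered 408, whereas 1441 were less than 10% exonic. Of the peaks, 2841 overlapped 1 exon, 1029 overlapped 2, 862 overlapped 3 to 5, 209 overlapped 6 to 9 and 43 overlapped 10 or more. A whole exon lay inside 3417 peaks, or 68.6%, and a splice site of the representative transcript inside 4242, or 85.1%. Coding bases were present in 4418 peaks. Of the exonic bases of the gene overlapped most, 54.0% were coding, 26.2% lay in 3′ untranslated regions of some transcript, 5.16% in 5′ untranslated regions and 14.6% in exons of transcripts without a coding sequence.

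The exonic and the remaining bases of the same peak differed in composition. Among 3766 peaks with at least 100 exonic and 200 other bases, the exonic part had a median GC content of 53.7% and the other part 48.9%. The exonic part was the richer in 3086 peaks, or 81.9%, with a median difference of 4.65 percentage points. GC skew pointed the other way. It was positive in the exonic part of 57.9% of these peaks and in the other part of 71.0%, with medians of 0.0220 and 0.0458. A coding strand with more G than C was thus more frequent in the intronic bases of these peaks than in their exonic bases.

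The peaks lay toward the 3′ end of their genes. With each gene divided into 5 equal parts from start to end, the parts held 11.8%, 14.0%, 17.7%, 23.5% and 33.1% of peak midpoints. Purely intronic peaks ran in the opposite direction. With genes divided into 10 equal parts, the first held 11.4% of them and the last 6.24%. Internal exons themselves are denser toward the 3′ end, with 3.26% of those of the same genes in the first of the 10 parts and 16.6% in part 9. Peaks exceeded the share of exons mainly at both ends, with 6.64% in the first part and 18.3% in the last, where exons numbered 12.8%. In the last part, 504 of 910 peaks had bases of a 3′ untranslated region. In the stricter set, without transcript starts and ends, the 5 parts held 7.92%, 15.3%, 19.9%, 26.0% and 30.9%, so the rise toward the end was also present there. Both outer parts held less than in the whole class. Internal exons had 3.26% and 4.94% in the first 2 of the 10 parts and 16.6% and 12.8% in the last 2. Whether the rise in the stricter set goes beyond that of the exons was not tested.

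**Figure D2:**
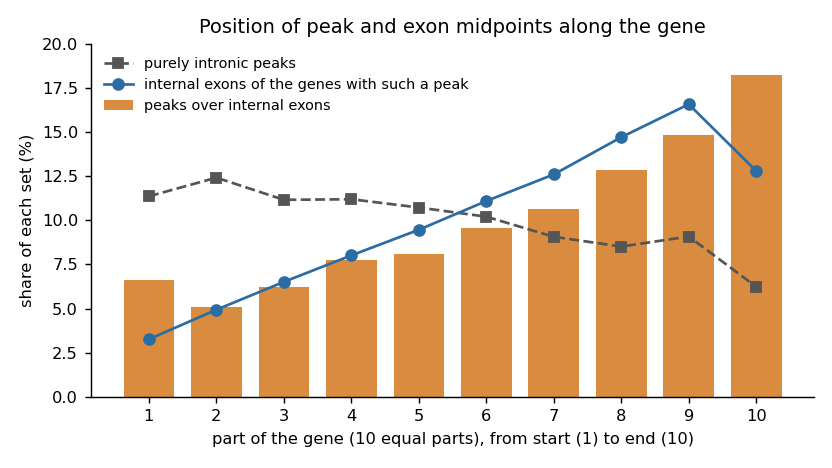
Share in percent of peaks over internal exons (bars), of purely intronic peaks (squares) and of internal exons of the genes with such a peak (circles) by which of 10 equal parts of the gene the midpoint lies in. The bars rise from 6.64% to 18.3%, the circles rise to 16.6% in part 9, and the squares fall from 11.4% to 6.24%.

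Measured in bases, the near edge of a peak over an internal exon lay a median of 18.3 kb from the gene start and 8.46 kb from the gene end. Within 1 kb of the start there were 388 peaks and within 1 kb of the end 591. More than 5 kb from both lay 2448 peaks, or 49.1%. The nearest other peak was at a median gap of 4.87 kb, against 9.08 kb for all peaks, and it belonged to the same class for 1820 peaks and was purely intronic for 1310. A restriction site of the digest was found no farther than 100 bp from 28.9% of the edges, against 28.3% for all peaks, and 55.2% of the peaks had such a site inside.

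Of the 21839 protein-coding genes below the length limit, 3593 held a peak over an internal exon, which is 16.5% and the background for every gene list below. A single such peak was found in 2625 genes, 2 in 654, 3 in 220 and at least 5 in 36. Only 49 of the peaks overlapped exons of more than 1 gene. Genes with such a peak had a median length of 30.8 kb and a median of 11 exons, against 11.7 kb and 5 exons for genes without. The share rose with the number of exons of the representative transcript, from 0.674% of single-exon genes to 17.4% of genes with 6 to 10 exons, 29.0% with 11 to 20 and 35.2% with 21 to 40. Among genes with over 40 exons it was 33.7%. A gene with more exons offers more places for the rule to be met.

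The start of the gene was itself in a peak for 27.7% of genes with a peak over an internal exon and for 12.5% of genes without. For the gene end the shares were 18.8% and 9.65%. Neither end was in a peak for 2113 genes with a peak over an internal exon, or 58.8%, against 82.1% of genes without and 78.2% of all genes. On the X chromosome 6.39% of genes held such a peak, whereas among autosomes the share was lowest on chromosome 14, with 11.7%, and highest on chromosome 11, with 342 of 1629 genes. The Y chromosome, with 17 genes, held none.

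Zmynd8 (ENSMUSG00000039671) and Trio (ENSMUSG00000022263) had the most peaks over internal exons, 10 each. Zmynd8 encodes a chromatin reader with a bromodomain and lies on the minus strand at chr2:165609654-165724516. Its 10 peaks overlapped 19 exons, were 1.30 to 8.84 kb wide with a GC content of 49.2 to 55.7%, and 9 of them had positive GC skew. From the first to the last along the gene, the distances of their near edges from the gene start were 13.1, 23.3, 37.1, 44.7, 54.3, 59.0, 62.7, 86.0, 93.5 and 102.8 kb. They were thus spread over most of the gene, and these 10 peaks covered 32.8% of it. The gene end lay in a further peak and the gene start in none.

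Trio encodes a guanine nucleotide exchange factor that acts in axon guidance, and lies on the minus strand at chr15:27660407-27955603. Its length of 295 kb is just inside the limit of the rule. Its 10 peaks over internal exons lay in 2 stretches of the gene, 6 of them between 118 and 192 kb from the start, over exons 4 to 23, and 4 between 276 and 289 kb, over exons 48 to 55. They were 1.05 to 5.09 kb wide and covered 8.59% of the gene. A further 15 peaks of Trio were purely intronic and 1 covered its start.

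**Figure D3:**
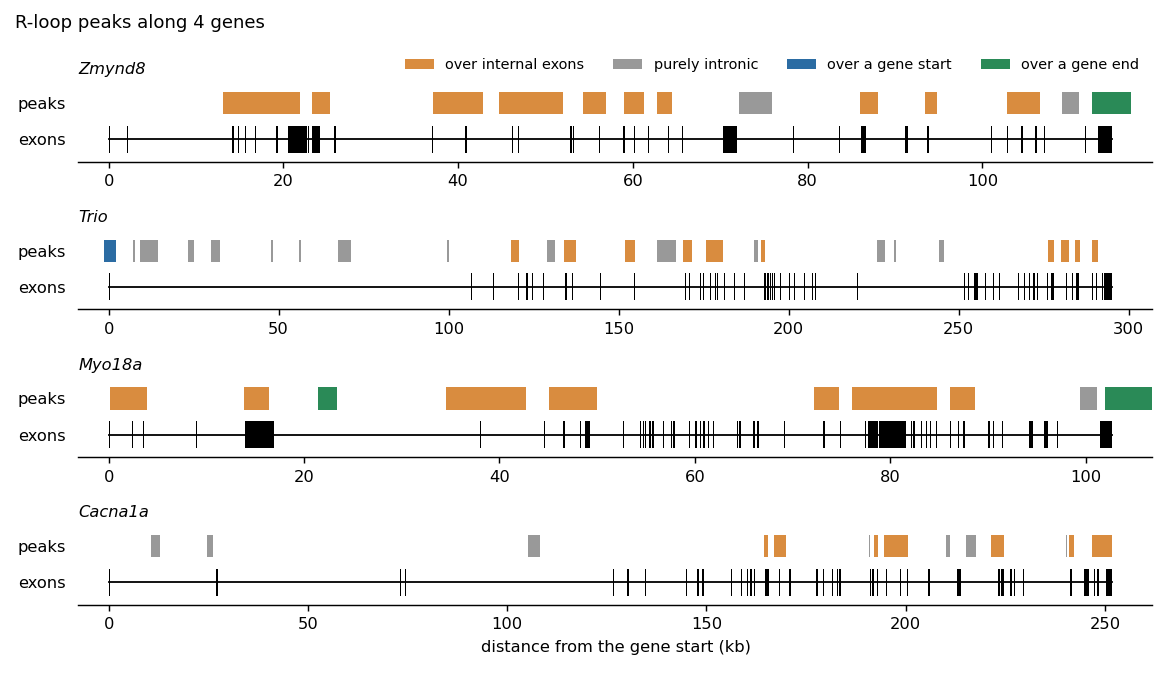
R-loop peaks (coloured bars) and annotated exons (black, the shortest drawn at a minimum width) of Zmynd8, Trio, Myo18a and Cacna1a against the distance from the gene start in kb. Orange marks the 10, 10, 7 and 7 peaks over internal exons, grey purely intronic peaks, blue a peak over a gene start and green peaks over a gene end, of that gene or of one that overlaps it.

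Further genes with many peaks encode proteins of unlike function. Myo18a (ENSMUSG00000000631), an unconventional myosin of the Golgi, had 7 peaks over 20 exons, and its widest, at chr11:77652837-77661541, held 9 annotated exons over exons 22 to 34 of the representative transcript and was 54.4% exonic. Cacna1a (ENSMUSG00000034656), the pore-forming subunit of P/Q-type calcium channels, had 7 peaks, all more than 164 kb from the start of a gene of 252 kb. Chd2 (ENSMUSG00000078671), a chromodomain helicase, had 7 peaks with a GC content of 40.7 to 49.5%, below the median of the class in all 7, and all 7 had positive GC skew. Dido1 (ENSMUSG00000038914), a PHD finger protein, had 7 peaks, all its peaks, in a gene of 52.0 kb.

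In all, 11 genes had 6 peaks, and the 4 of them that overlapped the most exons, with ties in alphabetical order, are described. Col18a1, which encodes the collagen from which endostatin is cleaved, had its peaks between 52.4 and 98.6 kb from the start. In Myo1c, a class I myosin that links membranes to actin, 6 peaks covered 39.6% of a gene of 24.1 kb. Lrig1, an inhibitor of EGF receptor signalling in stem cells, had peaks of up to 19.6 kb, and the 6 together covered 42.9% of the gene. Lrrfip1, which encodes a protein that binds the leucine-rich repeats of Flightless, had peaks of 2.18 to 10.3 kb. Counts of peaks per gene depend on how the list divides a region. Neighbouring peaks exactly 1 bp apart occurred 305 times in the list and touched 150 peaks over internal exons. With peaks closer than 10 bp joined, Dido1 fell from 7 to 5 peaks and Col18a1 and Myo1c from 6 to 4, while the other 7 of the 10 genes described kept their counts. Counts also depend on which starts and ends are excluded. When peaks with the start or end of any annotated transcript were left out, Zmynd8 kept 5 of its 10 peaks, Chd2 4 of 7 and Myo18a 1 of 7, Dido1 4 of 7, Col18a1 3 of 6 and Myo1c 2 of 6. Dido1 also kept 4 peaks with coding sequence only, with peaks of at least 1 kb and with peaks closer than 1 kb merged. Col18a1 kept 2 with peaks of at least 1 kb, and Myo1c 3 with coding sequence only and 3 after merging.

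Some peaks spanned long runs of exons. A peak of 30.1 kb in Atg2b, which encodes a lipid transfer protein of autophagosomes, at chr12:106869764-106899866, held 24 whole exons, from exon 11 to exon 34 of 42, in DNA of 44.6% GC. In Cic, the gene of the transcriptional repressor Capicua, a peak at chr7:26063518-26079115 overlapped 22 exons, had 58.0% GC and stopped 63 bp short of the gene end. Prpf8, a core protein of the spliceosome, had a peak of 7.35 kb over 18 exons, as had Plcg1, the gene of phospholipase C gamma, with 6.70 kb. In Col6a1, a chain of collagen VI, 16 whole exons lay in 5.26 kb. All 5 peaks had a positive GC skew, from 0.0085 in Cic to 0.0721 in Col6a1.

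Exons took up a small share of the widest peaks. The peak of 40.5 kb in Daam1, a formin of planar cell polarity signalling, at chr12:73014502-73055048, was 4.40% exonic with 13 exons. The peak of 40.5 kb in Ptprj, a receptor-type tyrosine phosphatase, was 2.24% exonic with 5 exons. The peak of 35.5 kb in Rfx4, a transcription factor of neural progenitors and ciliogenesis, was 0.661% exonic and began 1.90 kb from the gene start. Their GC content was 45.4, 46.0 and 46.6%, below the median of the class, and they held 60, 40 and 53 restriction sites.

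Seen from the exons, 7994 of the 154535 internal exons of representative transcripts, or 5.17%, were overlapped by a peak of this class, and 7091 lay wholly inside one. The overlapped exons had a median length of 129 bp and a median GC content of 54.0%, against 123 bp and 51.5% for exons of the same genes that lay in no peak. Within 2600 genes that had both kinds, the overlapped exons were richer in GC in 57.7% and longer in 59.5%. The intron upstream was longer in 51.8% of genes and the intron downstream in 50.3%. The share of exons overlapped rose with their GC content, from 1.52% below 40% GC to 7.59% between 60 and 65%, and was 6.75% above 65%. By position in the transcript it was 3.75% for second exons, 5.90% for exons 6 to 10 and 4.52% from exon 21 on.

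Long exons were overlapped most often. Of 1033 internal exons of at least 1 kb, 17.0% were overlapped, against 4.81% of those under 100 bp. A longer exon is more likely to meet a peak, so their midpoints were compared as well, counting peaks over internal exons and purely intronic peaks alike. A peak covered 13.0% of the midpoints of exons of at least 1 kb, 6.86% of those of 500 to 1000 bp and 4.67% of those under 100 bp. The longest exons wholly inside a peak were exon 5 of Mtap1a (later Map1a), 8104 bp in a gene for a microtubule-associated protein, exon 3 of Rai1, 5527 bp, and exon 8 of Prdm2, 4390 bp. Rai1 encodes a transcriptional regulator and Prdm2 a zinc finger protein of the PR domain family. Exon 4 of Luzp1, with 3163 bp, and exon 11 of Lmtk2, a membrane-anchored kinase, with 2869 bp, followed. The GC content of these 5 exons ran from 47.3% in Luzp1 to 61.7% in Rai1.

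Coverage peaked at exons but only shallowly. Counting again peaks without a gene start or end, 4.90% of internal exon midpoints lay in a peak, compared to 3.99% of positions 5 kb upstream and 4.21% of positions 5 kb downstream within the gene. Midpoints of introns of at least 1 kb were covered in 3.55%. In bases, these peaks covered 5.71% of internal exons and 3.04% of introns. When positions were grouped by the GC content of the surrounding 1 kb, exons and introns came close together. At 45 to 50% GC, 6.17% of exon and 5.65% of intron midpoints were covered, and at 50 to 55% GC 8.30% and 7.66%. Below 40% GC the shares were 0.614% and 0.643%. Above 60% GC they were 7.06% and 12.7%, the latter from 27 of 212 introns. Whether the remaining differences exceed the spread between replicates could not be tested.

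**Figure D4:**
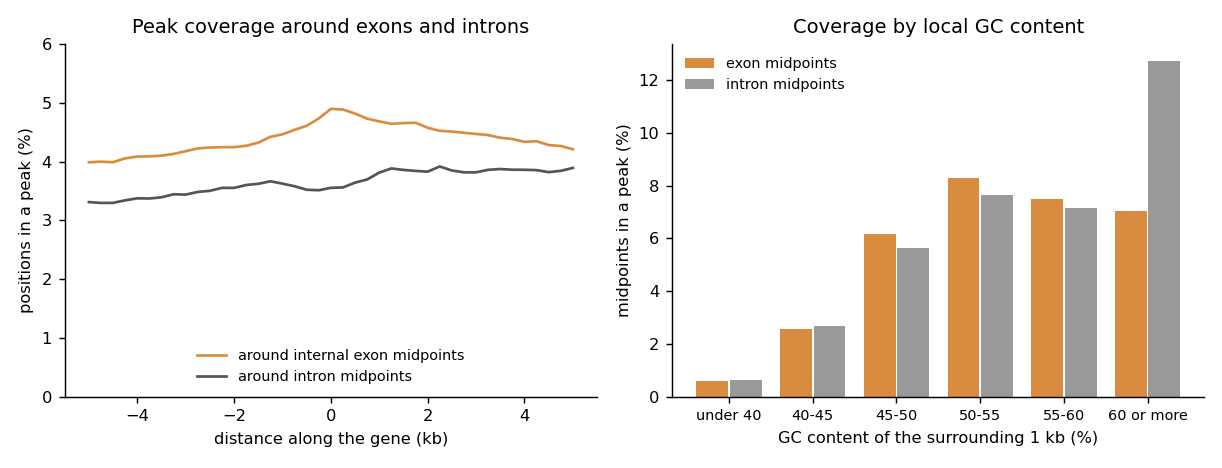
Left, share in percent of positions that lay in a peak without a gene start or end, by distance in kb along the gene from the midpoints of internal exons (orange) and of introns of at least 1 kb (grey). Right, share of the midpoints in such a peak by the GC content of the surrounding 1 kb; exons reach 4.90% at their midpoint on the left, while on the right, of the bins below 60% GC, that from 50 to 55% is the highest for both, with 8.30% and 7.66%.

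Gene lists of pathways, complexes and cell types were compared with the background of 16.5%. Since the share depends on exon number, the median number of exons is given with each list. Histone lysine methyltransferases and acetyltransferases, which write marks of active and silent chromatin, had a peak over an internal exon in 18 of 27 genes, with a median of 23 exons. Mll1 (later Kmt2a), a methyltransferase of histone H3, had 6 such peaks, Setd1b 4, Setd1a 3 and several, among them the acetyltransferase gene Crebbp, 2. ATP-dependent chromatin remodellers, which move or evict nucleosomes, had one in 14 of 27, with a median of 32 exons, led by Chd2 with 7, Chd7 with 6 and Arid1a and Chd8 with 4 each. For genes of 21 to 40 exons in general the share was 35.2%.

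Factors of pre-mRNA splicing, the reaction that joins exons, had such a peak in 20 of 38 genes, with a median of 14 exons, where genes of 11 to 20 exons reached 29.0% overall. Sf3b2, a component of the U2 particle, had 4 peaks and Srrm1 3, and several had 2 each, among them Prpf8 and Hnrnpul1. In Prpf8 the peaks overlapped 20 exons. Myosins, kinesins and dyneins, the motors of actin and microtubules, had one in 16 of 29, or 55.2%, with a median of 28 exons. The share of all genes with 21 to 40 exons was 35.2%. Myo18a and Myo1c led, then Kif1b with 3 and several with 2, among them Dync1h1. Although the list was labelled as of dividing cells, it also holds kinesins of neuronal transport, such as Kif1a and Kif5a with 1 each. Kif11, Kif20a, Kif22 and Kif23 had none. Genes of mTOR and phosphoinositide signalling, which couple growth factors and nutrients to translation, had one in 14 of 28, with a median of 24 exons. Genes of 21 to 40 exons in general reached 35.2%. The 14 include Pdk1, with 2 peaks, which encodes pyruvate dehydrogenase kinase 1 and is not a gene of this pathway. Eif4g3, a scaffold of translation initiation, had 5 peaks. Its paralog Eif4g1 had 3 over 23 exons, and Mtor and Pik3c2b were among the others with 3 each.

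Receptor tyrosine kinases for growth factors had such a peak in 11 of 29 genes, or 37.9%, with a median of 20 exons. For all genes of 11 to 20 exons the share was 29.0%. Tyro3, a receptor of the TAM family, had 5 over 11 exons, Fgfr1 3, and several 2 each, among them Egfr and Ephb4. Collagen and basement membrane chains had one in 10 of 32, or 31.25%, with a median of 51 exons, the highest of the 12 lists. This lay near the 33.7% of all genes with over 40 exons. Col5a3 had 3 and Col16a1 and Col9a3 2 each, beside the 6 of Col18a1. Among the Fat, Dachsous and Celsr cadherins, giant adhesion proteins of planar polarity, Fat1 had 4, Dchs1 3 and Celsr2 2, and the other 4 genes none. The median of these 7 genes was 26 exons, and 35.2% of all genes with 21 to 40 exons had such a peak.

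The Notch pathway holds neural stem cells undifferentiated through contact between neighbouring cells. Of its genes, 8 of 25 had such a peak, with a median of 11 exons. This share of 32.0% lay near the 29.0% of all genes with 11 to 20 exons. Among receptors, Notch2 had 3 and Notch1 and Notch3 2 each, while Notch4 had none. Among ligands, Jag1 had 2 peaks over 11 exons and Dll1 1, while Dll3, Dll4 and Jag2 had none. Among effectors Rbpj, the DNA-binding partner of the cleaved receptor, had 2 and Hes1, a target gene, 1. Hes5, Hey1 and Hey2 had none. Markers of neural stem cells and glia had one in 9 of 29 genes, or 31.0%, with 1 peak each and a median of 9 exons. For all genes of 6 to 10 exons the share was 17.4%. Markers with a peak included Slc1a3, a glutamate transporter of radial glia and astrocytes, and Aldh1l1, a folate enzyme of astrocytes. Msi1, an RNA-binding protein of neural progenitors, and Mki67, a marker of dividing cells, had one too. Most markers had none, among them Nes, Vim, Gfap, Fabp7, Pax6 and Sox9. The cell types behind these peaks cannot be told apart in a list made from a whole culture.

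At the other end, plexins, neuropilins and semaphorins, the receptors and ligands of axon guidance, had such a peak in 4 of 27 genes, with a median of 18 exons. These were Sema4b with 2 and Plxna3, Sema4d and Sema6a with 1 each. Striated muscle genes, which neural cells are not known to transcribe strongly, had one in 5 of 29, or 17.2%, with a median of 38 exons. Mybpc2 had 2 and Ckm, Myh3 and Myom2 1 each, as had Ryr1. Both shares lay near the background of all genes and under the 29.0% and 35.2% of genes with comparable exon numbers. None of the starts of the 29 striated muscle genes lay in a peak, against 15.0% of the starts of all genes. Several lists with high shares over internal exons also had many starts in a peak. The shares of starts were 66.7% for histone methyltransferases and acetyltransferases, 50% for splicing factors, 40.7% for remodellers and 37.9% for neural markers. Receptor tyrosine kinases had 10.3%, collagen and basement membrane chains 9.38% and the cadherins 14.3%, all below that of all genes. Whether the high shares are particular to internal exons was not tested.

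**Figure D5:**
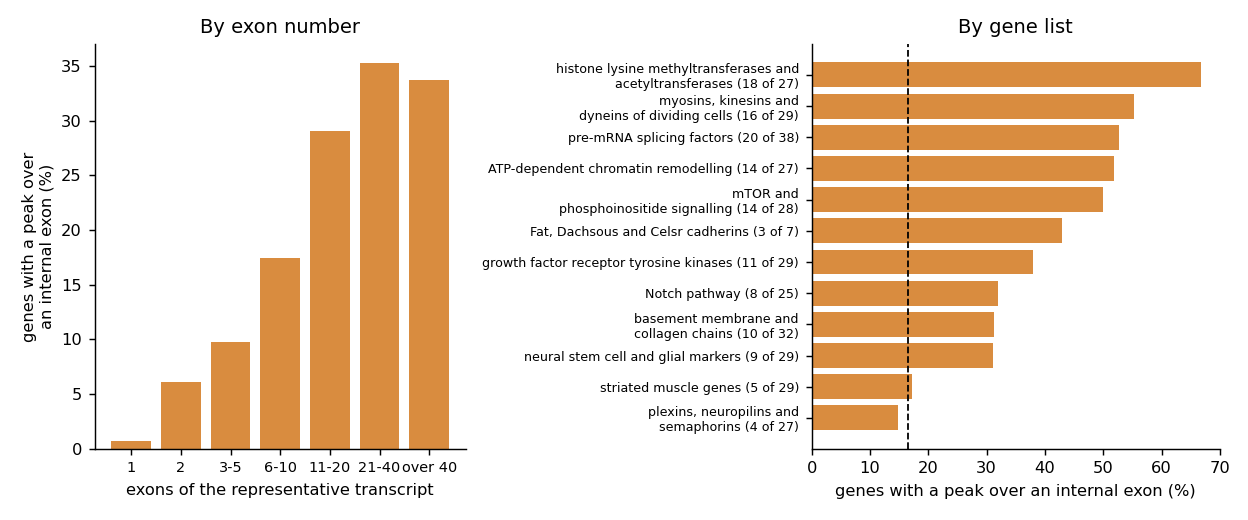
Left, share in percent of protein-coding genes under 300 kb with a peak over an internal exon by the number of exons of the representative transcript. Right, the same share for 12 gene lists, with the number of genes with such a peak of all listed genes under the length limit in parentheses and the 16.5% of all genes as a dashed line; the shares run from 14.8% for plexins, neuropilins and semaphorins to 66.7% for histone methyltransferases and acetyltransferases.

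Some genes that the paper discusses for brain disorders and tumours had peaks over internal exons. Htt, the Huntington's disease gene, had 3, at chr5:35125193-35130841 over exon 2, at chr5:35206620-35207263 over exon 38 and at chr5:35248831-35252169 over exons 64 to 67 of 67. The first of them was 1.49% exonic, and the last ended 3.01 kb before the gene end and was 37.0% exonic. Fgfr1, a receptor of fibroblast growth factors, also had 3, over exon 3, exons 5 to 7 and exons 11 to 13 of 18, and 2 of them had negative GC skew. Lztr1, an adaptor of a ubiquitin ligase, had 1 over exons 13 to 18 of 21, which was 58.2% exonic. H3f3a, which encodes histone H3.3, had 1 of 8.07 kb that reached into its last exon.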

How the data were processed

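The authors sequenced DRIP DNA of primary NSPCs, trimmed reads with Trim Galore 0.6.6, and after alignment to NCBI37/mm9 and removal of duplicates found peaks with a Hidden Markov Model. The deposited list holds positions in bp, with no count, signal or score. How 3 replicates became 1 list is not given in the sources used here. The depth is unknown, and no error or test between classes could be computed. Starts were read as 0-based and printed as 1-based.

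Peaks were placed on mm9 and GENCODE M1 (22367 protein-coding genes, of which 21839 were under 300 kb). Overlapping exons of a gene were merged. A gene start or end is the outer limit over all its transcripts. The symbols of 3571 of the 3593 genes were found in a RefSeq table of a later build, used for names only. Class assignment was tested on simulated intervals. Members, gene lists and named genes were chosen with earlier results of these data known. Named were the 10 genes with the most peaks, the 5 peaks over the most exons, the 3 widest, the 5 longest exons inside a peak, up to 4 genes a list with the most peaks and genes the paper names, of which 1 is not reported here. Sox2, Rbpj, Dll1, Hes1, Notch4, Slc1a3, Ryr1, Pdk1, Kif1a and Kif5a fall outside this rule and were chosen after values were seen. So were the other genes named as having no such peak. Alternatives changed gene limits, exon type, overlap, gene length, peak width, merging and chromosomes. Joining peaks closer than 10 bp was added after seeing the data. Python 3.11.15, numpy 2.4.6, scipy 1.17.1, pysam 0.24.0 and matplotlib 3.10.9 were used.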

Additional observations from a re-analysis of the deposited data

How the results depend on the processing

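With 1 peak list, no replicate could be left out, and the check of each value was limited to other ways of choosing the peaks. Of 40 values for the 5 main measures under 8 alternatives, 29 stayed within 1.5 times the count or within the 95% interval of the median or share over peaks, which covers the number of peaks and not replicates. Excluding the starts and ends of every annotated transcript in place of the outer gene limits left 3033 peaks in 2385 genes, a median width of 1.71 kb, 49.5% GC and 10.3% in the leading 1 of 5 gene parts of equal length. Counting coding sequence only gave a median width of 2.14 kb and 10.1% in that first part. Keeping peaks of at least 1 kb gave 2.61 kb, 49.8% GC and 10.5% in that first part. Merging peaks closer than 1 kb gave 2.11 kb. No limit on gene length, an overlap of at least 50 bp, autosomes alone and joining peaks closer than 10 bp moved none of the 5. Between 4801 peaks with an overlap of at least 50 bp and 5124 without the limit on gene length lay the 4984 of the rule. Among 80 peak counts of the 10 leading genes, 12 moved by over 1.5 times, 6 of them when transcript starts and ends were excluded. The depth behind the list is unknown, so a gene without a peak cannot be told from one with too few reads. Repeats, mappability and input signal were not examined.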
